A study of Mus musculus with 50 samples.

Results

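Eef1a1 and Eef1a2 encode the alternative forms of eukaryotic elongation factor 1 alpha (eEF1A), and their DNA methylation was described here CpG by CpG in mouse soleus muscle. The members were all CpGs that the deposited annotation placed in the promoter or gene body of Eef1a1 (ENSMUSG00000037742) or Eef1a2 (ENSMUSG00000016349). They numbered 30 of 205304 measured CpGs, of which 17 belonged to Eef1a1 and 13 to Eef1a2. The assay was reduced representation bisulfite sequencing (RRBS), in which MspI cuts DNA at CCGG and bisulfite turns unmethylated cytosines into bases read as thymine. The study compared wild-type (WT) mice with mice that lacked Dnmt3a, a de novo DNA methyltransferase gene, in muscle (mD3AKO, written KO in the plots), at rest or at 10, 30 or 60 min after treadmill running for 30 min. The mice at rest spent the same time on a sham treadmill. Of 50 samples, 44 had counts in the table used here. WT gave 21 muscles, 5 at rest and 5, 5 and 6 at the successive times, and mD3AKO gave 23, with 5, 5, 7 and 6.

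Both genotypes were homozygous for floxed Dnmt3a (Dnmt3a flox/flox) on a C57BL/6 background, were 12 weeks old and included females and males. The mD3AKO mice also carried Cre driven by the muscle creatine kinase promoter (mCK-Cre), which the WT mice lacked. Recombination removes exon 19 of Dnmt3a, and because this Cre acts in muscle fibres, other cells of the muscle keep the gene. A methylation level is the share of calls at a CpG, or pooled over neighbouring CpGs, that were methylated. In whole muscle, a lower share of methylated cells and a lower level within each cell cannot be told apart.

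eEF1A binds GTP and carries aminoacyl-tRNAs to the ribosome, so it acts at each step by which a protein chain grows. Eef1a1 is active in nearly all cells. Eef1a2 is the form of mature skeletal muscle, heart and neurons, and in muscle it takes over from Eef1a1 after birth. This replacement is a change in expression, and expression was not analysed here.

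The 16 CpGs nearest the Eef1a1 start formed one cluster, chr9:78481309-78482312 in GRCm38 (the same assembly as mm10). Clusters are the submitters' groups of neighbouring CpGs. The gene lies on the minus strand and its RefSeq transcript starts at position 78481724, so the cluster ran from -587 to +415 bp of that start and is called the start cluster here. The deposited annotation counted these CpGs as gene body, since a longer GENCODE transcript starts 7427 bp further upstream. Its promoter of Eef1a1 held 1 measured CpG, at chr9:78488815, the distal cluster. Eef1a2, on the minus strand of chromosome 2, had a cluster of 10 CpGs in the 5′ untranslated part of exon 1 (chr2:181156854-181156923), counted as promoter and gene body. A second cluster of 3 CpGs lay in intron 4 (chr2:181152443-181152518).

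Each CpG was read from 1 of 6 MspI fragments. The fragments on which the comparisons turn are given below from the reference genome, 5′ to 3′ on the gene strand, with the measured CpGs in capitals. The upstream fragment of Eef1a1 (chr9:78482222-78482312, minus strand, 91 bp) lies outside the RefSeq transcript and in intron 1 of the longer one. It holds 5 CpGs, all measured, and had the largest difference between genotypes in percentage points of the 6 fragments. The near intron fragment (chr9:78481463-78481579, minus strand) is shown as the CpG-rich neighbour in intron 1 that stayed close to 0 in both genotypes. The Eef1a2 intron fragment (chr2:181152443-181152518, minus strand) is shown because it held the most methylated CpG of either gene.
Eef1a1 upstream fragment: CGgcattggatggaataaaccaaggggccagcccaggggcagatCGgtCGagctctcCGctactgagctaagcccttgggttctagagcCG
Eef1a1 near intron fragment: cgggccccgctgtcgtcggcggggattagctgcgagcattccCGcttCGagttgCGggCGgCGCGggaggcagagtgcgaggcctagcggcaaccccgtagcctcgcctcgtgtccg
Eef1a2 intron fragment: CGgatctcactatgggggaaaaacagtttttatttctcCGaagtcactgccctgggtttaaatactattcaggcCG

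The near intron fragment had 18 CpGs, of which 6 were measured, and a GC content of 72.7%. The upstream fragment had a GC content of 60.4%. In the Eef1a2 intron fragment all 3 CpGs were measured, and the GC content was 44.7%. A search of the genome found no second copy of any of these 3 fragments. The far intron fragment of Eef1a1 (chr9:78481309-78481417), with 5 measured CpGs, had matches elsewhere of at most 35 bp. The pyrosequencing amplicon that the study designed at Eef1a1 (chr9:78482186-78482293) overlaps the upstream fragment and holds 4 of its CpGs. The study labelled this amplicon as promoter, while the deposited annotation counts its CpGs as gene body. It reported lower methylation there in the quadriceps and EDL muscles of other mD3AKO mice.

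Depth was 12819404 to 41285655 methylation calls per sample, and every CpG had at least 8 calls in every sample. RRBS covered 21 CpGs of Dnmt3a but none in the floxed exon 19, so these data do not check the deletion itself. Over 553 clusters called lower in mD3AKO, members left out, the median level was 19.8 to 30.4% in WT samples and 7.53 to 13.2% in mD3AKO samples. This is a description, since those clusters were chosen by the same contrast, and no library went against its label. The tissue was not checked against marker genes, because expression was not used here.

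The start cluster of Eef1a1 was hypomethylated in mD3AKO muscle. Its level was 4.33% ± 2.17 in WT (SD, n = 21) and 0.639% ± 0.604 in mD3AKO (SD, n = 23). WT samples ran from 1.57% through a median of 3.75% to 8.33%, and mD3AKO samples from 0 through 0.515% to 1.86%. The groups were nearly separate, with 22 of 23 mD3AKO samples below the lowest WT sample and 20 of 21 WT samples above the highest mD3AKO sample. Complete separation, with every mD3AKO sample below every WT sample, was seen in 0.00784% of all clusters. The start cluster did not meet that stricter criterion, and the share of clusters as nearly separate as it was not counted. The log2 ratio of the odds of methylation was -3.22 (SE 0.49), with an adjusted p of 0.000132 in edgeR's quasi-likelihood test over 51038 clusters. Of all clusters, 1.09% were called lower in mD3AKO in that test, and 0.642% of those with a WT level under 5%. Calls in it numbered 536 to 3043 per sample, with a mean of 1253 in WT and 1551 in mD3AKO. With each CpG weighted equally, the level was 2.94% in WT and 0.495% in mD3AKO, a smaller gap of -2.44 points (permutation test, two-sided, p = 1e-05). It was the only one of the 4 member clusters that was called, and it had the 26th lowest p of all clusters.

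The 2 genotypes met at 2 samples taken 30 min after exercise. WT sample 32 had 18 methylated of 1148 calls, or 1.57% with a Wilson 95% interval of 0.994 to 2.46%. In mD3AKO sample 27, 20 of 1074 calls were methylated, or 1.86% with an interval of 1.21 to 2.86%. These intervals cover counting error only, since copies made by PCR are counted as calls. In 5 mD3AKO samples no methylated call was seen, which allows levels of up to 0.193 to 0.347% by the limit of 3 counts. That limit treats every call as independent, although PCR copies and neighbouring CpGs on the same read are counted, so higher levels are not excluded.

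The difference was present at each time after exercise. At rest the WT samples had 2.40, 3.44, 3.84, 3.93 and 7.96%, and the mD3AKO samples 0, 0.146, 0.159, 0.925 and 1.48%. At 10 min the values were 2.29, 2.77, 3.14, 3.75 and 8.33% in WT and 0, 0.515, 0.637, 0.923 and 1.03% in mD3AKO. Neither time had any overlap between genotypes, and the two-sided exact permutation test gave p = 0.00794 at both, the smallest p that 5 against 5 samples allow. At 30 min, WT had 1.57, 2.27, 3.03, 6.33 and 7.90%, and the 7 mD3AKO samples ran from 0 through a median of 0.887% to 1.86% (exact permutation test, p = 0.00253). At 60 min the 6 WT samples ran from 2.01 through 4.38 to 8.17%, and the 6 mD3AKO samples from 0 through 0.231 to 1.40%, again without overlap (exact permutation test, p = 0.00216). The share of all clusters without overlap at a single time was not counted, so how unusual this is was not shown. After adjustment over 16 tests of 4 clusters and 4 times, these p-values were 0.0317 at rest and 10 min and 0.0202 at 30 and 60 min. That adjustment does not cover the choice of Eef1a1, which the study had already reported as hypomethylated in these data. The edgeR fit, adjusted over all clusters, called the start cluster at none of the single times (adjusted p 0.326 to 0.881), and in it the share of all clusters called was 0.00588% for rest and 0.0137, 0.0176 and 0.00784% for the 3 successive times.

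**Figure D1:**
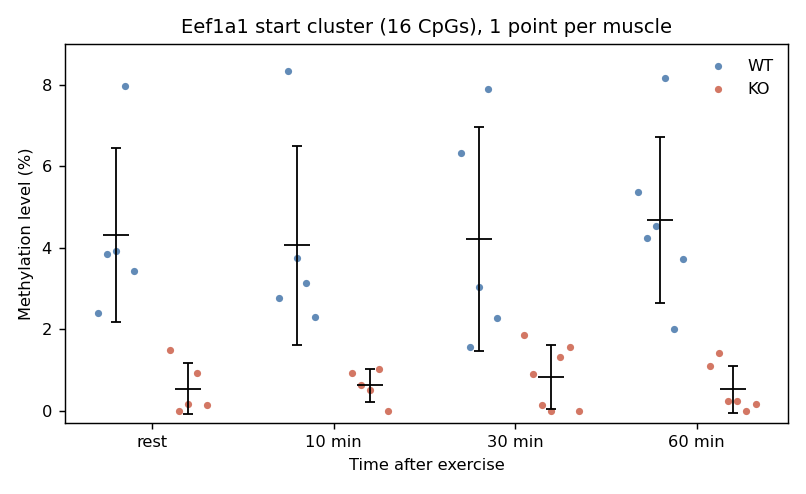
Methylation level of the Eef1a1 start cluster (vertical axis, percent of calls pooled over 16 CpGs) by time after exercise, with 1 point per muscle and the mean and SD of each group in black. WT muscles lie between 1.57 and 8.33% and KO muscles between 0 and 1.86%, and the genotypes overlap at 30 min alone.

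Exercise did not move the start cluster detectably. WT means were 4.31% ± 2.13 at rest (SD, n = 5), 4.05% ± 2.45 at 10 min (SD, n = 5), 4.22% ± 2.75 at 30 min (SD, n = 5) and 4.67% ± 2.04 at 60 min (SD, n = 6). The mD3AKO means stayed between 0.520 and 0.824%. In edgeR's quasi-likelihood test the unadjusted p was 0.984 for time and 0.867 for the interaction of genotype and time, each with an adjusted p of 1. For both terms 0% of all clusters were called, while 1460 and 1399 of 51038 had an unadjusted p under 0.05. None of the 4 member clusters was called for either term in the likelihood ratio test or the quasi-binomial model.

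Within the start cluster, the difference in percentage points was largest in the upstream fragment. The fragments were not tested against each other, and the intron fragments, with low WT levels, had little room to fall. The pooled level of its 5 CpGs was 7.43% ± 4.80 in WT (SD, n = 21) and 1.06% ± 1.30 in mD3AKO (SD, n = 23), which differ by -6.37 percentage points (permutation test, two-sided, p = 1e-05, the smallest that 100000 resamples can give). All 23 mD3AKO samples were below the WT mean, although the highest, at 4.86%, exceeded the lowest WT sample, at 0.741%. The near intron fragment had 0.677% ± 1.53 in WT (SD, n = 21) and 0.152% ± 0.424 in mD3AKO (SD, n = 23) (permutation test, p = 0.133), and 15 of 21 WT samples had no methylated call in it. The far intron fragment had 1.43% ± 2.12 in WT (SD, n = 21) and 0.329% ± 0.744 in mD3AKO (SD, n = 23) (permutation test, p = 0.0184, unadjusted). With clusters rebuilt at a gap of 50 bp, the upstream fragment was a cluster of its own and was called (log2 odds ratio -3.42, edgeR, adjusted p = 0.00056), where 0.641% of clusters were called lower. Pooling by fragment was chosen after the values were seen.

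A single CpG had the largest difference of all 30 members. At position 78482254 (-530 bp from the RefSeq start), the level was 17.6% ± 10.2 in WT (SD, n = 21) and 1.34% ± 2.90 in mD3AKO (SD, n = 23). WT samples ran from 0 through a median of 17.1% to 40.0%, mD3AKO samples from 0 through 0 to 10.8%, and 16 of 21 WT samples were above every mD3AKO sample. The share of all CpGs separated to that degree was not counted. Its adjusted p was 3e-06 in edgeR's quasi-likelihood test over 205304 CpGs, of which 0.287% were called lower.

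The values at 78482254 varied widely from muscle to muscle within WT. At rest they were 0, 10.8, 17.1, 18.0 and 29.5% in WT and 0, 0, 0.671, 0.704 and 2.72% in mD3AKO, and 1 WT muscle at 0 made the groups overlap. At 10 min they were 13.6, 15.5, 17.0, 20.6 and 40.0% in WT and 0, 0, 0, 1.06 and 3.29% in mD3AKO, with no overlap. The share of all CpGs without overlap at that time was not counted. At 30 min WT had 3.39, 10.6, 18.5, 21.8 and 23.5%, and the 7 mD3AKO samples ran from 0 through a median of 0.412 to 10.8%. At 60 min the 6 WT samples ran from 1.56 to 38.4%, and 5 of 6 mD3AKO samples were at 0. Neither time nor its interaction with genotype was called at this CpG (edgeR, adjusted p = 1 for both).

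The next CpG upstream, at 78482263, had 4.76% ± 6.99 in WT (SD, n = 21) and 0.0792% ± 0.229 in mD3AKO (SD, n = 23) (edgeR, adjusted p = 0.0225). WT samples ran from 0 through 1.72 to 27.7%, while no mD3AKO sample exceeded 0.926%, and 11 WT samples lay above that value. Here too the share of all CpGs so separated was not counted. The WT mean was 10.8% at 60 min, against 1.86% at rest, 1.20% at 10 min and 3.95% at 30 min, but time was not called there (edgeR, unadjusted p = 0.0410, adjusted p = 0.988). These were the 2 of 17 Eef1a1 CpGs that were called. At 78482267 the level was 6.81% ± 9.38 in WT (SD, n = 21) and 0.741% ± 1.64 in mD3AKO (SD, n = 23), which did not pass the test (edgeR, adjusted p = 0.105) but passed the likelihood ratio test (edgeR, adjusted p = 0.0308).

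The outer CpGs of the fragment, which are the MspI sites themselves, differed less. At 78482312 the level was 3.77% ± 5.93 in WT (SD, n = 21) and 1.12% ± 2.95 in mD3AKO (SD, n = 23). At 78482222 it was 2.88% ± 3.93 in WT (SD, n = 21) and 1.77% ± 4.44 in mD3AKO (SD, n = 23). Neither was called (edgeR, adjusted p = 0.981 and 0.918), and 78482312 was singled out after its values were seen, to complete the fragment. The 11 intron CpGs had mean levels of 0 to 3.14% in WT and of 0 to 1.36% in mD3AKO, none was called, and their samples were mostly at 0. Of these, 78481309 had the largest difference, with 3.14% ± 7.55 in WT (SD, n = 21) and 0 in every mD3AKO sample (edgeR, adjusted p = 0.429), and only 5 WT samples were above 0. At most of the intron CpGs edgeR could not decide, since a group of each genotype had no methylated call. An example was 78481520, at 2.73% in WT and 0 in mD3AKO.

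**Figure D2:**
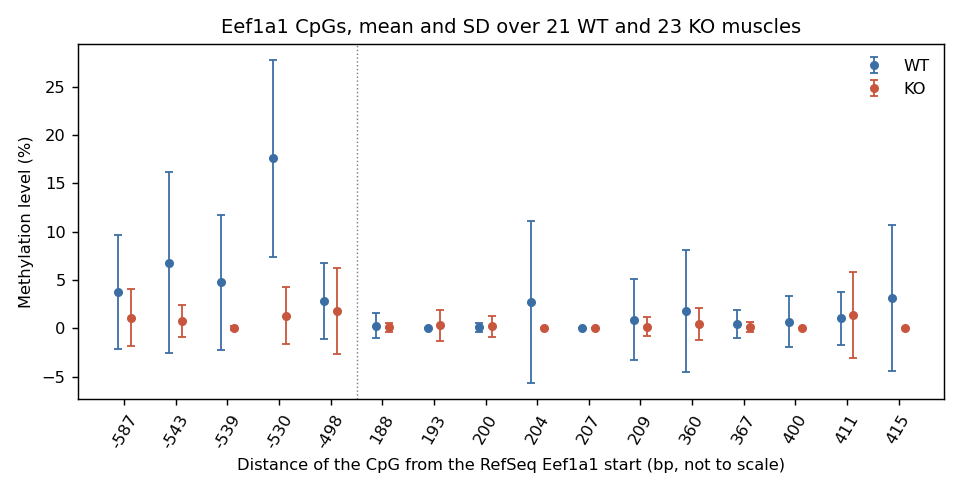
Methylation level (percent, mean and SD over samples) of the 16 CpGs of the Eef1a1 start cluster, ordered by distance from the RefSeq start, with the dotted line between the upstream fragment and intron 1. The largest gap between WT and KO is at -530, where the means are 17.6 and 1.34%, and the intron CpGs lie near 0 in both genotypes.

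The promoter of Eef1a1 as deposited was not called between genotypes. Its CpG at 78488815 had 7.86% ± 7.56 in WT (SD, n = 21) and 8.00% ± 6.91 in mD3AKO (SD, n = 23), and samples ran from 0 to 28.1% in WT and to 25.3% in mD3AKO, with 6 samples of each genotype at 0. These equal means averaged over times at which the sign differed. The mD3AKO mean minus the WT mean was -4.32 points at rest and -6.24 at 10 min, then 4.21 at 30 min and 5.70 at 60 min. The genotypes overlapped at every time (exact permutation tests, p = 0.123 to 0.5, adjusted p of at least 0.395), and the interaction of genotype and time was not called (edgeR, unadjusted p = 0.474, adjusted p = 1). The adjusted p of this promoter was 1 in edgeR's quasi-likelihood test over 9761 promoters, of which 0.789% were called, 0.779% in the lower direction. The gene body, which pooled all 17 CpGs, was lower in mD3AKO, with a log2 odds ratio of -2.41 (SE 0.41, edgeR, adjusted p = 0.000337), where 1.42% of 12391 gene bodies were called. Its level was 4.57% ± 1.98 in WT (SD, n = 21) and 1.10% ± 0.876 in mD3AKO (SD, n = 23). A single CpG with as few as 8 calls in a sample gives a coarse value, so the distal cluster was the least precise of the 4.

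Eef1a2, the muscle form, showed no detectable difference between genotypes at either of its clusters. In exon 1 the level was 1.93% ± 1.88 in WT (SD, n = 21) and 1.45% ± 1.13 in mD3AKO (SD, n = 23). WT samples ran from 0 through a median of 1.42% to 6.73% and mD3AKO samples from 0 through 1.15% to 3.52%, so the groups overlapped over nearly their whole range. The log2 odds ratio was -0.29 (SE 0.58, edgeR, adjusted p = 0.970).

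The intron cluster of Eef1a2 was at 48.6% ± 6.94 in WT (SD, n = 21) and 46.2% ± 8.95 in mD3AKO (SD, n = 23), with a log2 odds ratio of -0.13 (SE 0.19, edgeR, adjusted p = 0.939). WT samples ran from 28.6 through 49.8 to 58.4% and mD3AKO samples from 28.7 through 49.2 to 66.6%. Its CpGs differed widely among themselves within 76 bp. The middle one, 181152479, described after its values were seen, was at 85.4% ± 15.3 in WT (SD, n = 21) and 86.9% ± 13.8 in mD3AKO (SD, n = 23). The outer CpGs were lower, 181152443 at 20.4% ± 12.0 in WT (SD, n = 21) and 15.1% ± 12.4 in mD3AKO (SD, n = 23), and 181152517 at 39.6% ± 14.9 in WT (SD, n = 21) and 36.5% ± 21.1 in mD3AKO (SD, n = 23).

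Neither Eef1a2 cluster differed detectably between genotypes at a single time (exact permutation tests, adjusted p of at least 0.543). In the intron, WT means were 49.1, 50.4, 47.4 and 47.5% from rest to 60 min, beside 47.1, 48.4, 45.1 and 44.9% in mD3AKO. In exon 1, the WT means were 2.20, 2.84, 1.83 and 1.02%, beside 1.91, 1.74, 1.02 and 1.31% in mD3AKO, and the genotypes overlapped at every time. Neither cluster was called for time or for its interaction with genotype (edgeR, adjusted p = 1 for each).

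None of the 13 Eef1a2 CpGs was called, and none had an unadjusted p under 0.05 in edgeR's quasi-likelihood test, the likelihood ratio test or the quasi-binomial model, while limma gave 1. Of all CpGs, 0.287% were called in the quasi-likelihood test, and 13106 of 205304 had an unadjusted p under 0.05. With such shares, none among 13 CpGs does not set Eef1a2 apart. The edgeR tests could not decide where a group of each genotype had no methylated call. This held at 181156854, 181156867, 181156874, 181156878, 181156911 and 181156920. The 10 exon 1 CpGs had mean levels of 0.528 to 4.20% in WT and of 0.502 to 4.04% in mD3AKO, with a median of 0 in both groups at each. Of these, 181156911 had the largest difference, from 2.84% ± 4.92 in WT (SD, n = 21) to 0.581% ± 2.04 in mD3AKO (SD, n = 23). In the other direction, 181156896 was at 1.97% ± 7.20 in WT (SD, n = 21) and 4.04% ± 7.96 in mD3AKO (SD, n = 23). At 181156896 the test was not passed (edgeR, adjusted p = 0.908). At 181156911 edgeR could not decide, since both genotypes were at 0 at 10 min. There limma gave an unadjusted p of 0.0144 and an adjusted p of 0.390.

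**Figure D3:**
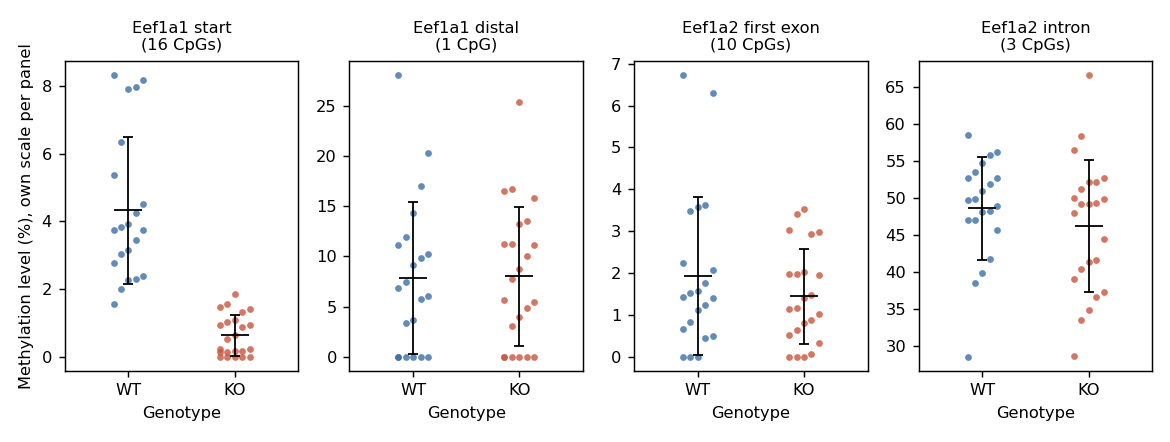
Methylation level (percent, own axis in each panel) of the 4 member clusters by genotype, with 1 point per muscle and the mean and SD in black. The Eef1a1 start cluster is nearly separate between 21 WT and 23 KO muscles, and the other clusters overlap widely.

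The genes were also compared within samples. The level of the Eef1a1 start cluster minus that of the Eef1a2 exon 1 cluster averaged 2.40 percentage points in WT muscle and -0.806 points in mD3AKO muscle. This gap changed by -3.21 points between genotypes (permutation test within times, two-sided, p = 2e-05, adjusted over 2 tests 4e-05). With each CpG weighted equally in place of each call, it changed by -2.002 points (permutation test, p = 0.00152). The start cluster itself differed by -3.69 points, a fall for which exon 1, at 1.93% in WT, had no room. A change of this gap in points therefore follows largely from the start cluster and does not show that the genes differ. On the log2 odds scale the gap to exon 1 changed by -3.15 (permutation test, p = 0.00015). Against the intron cluster of Eef1a2 the change was -1.33 points (permutation test, p = 0.611). The intron cluster itself differed by -2.36 points between genotypes, and its SD was 6.94 in WT and 8.95 in mD3AKO. On the log2 odds scale the change against the intron cluster was -3.38 (permutation test, p = 1e-05), so whether that change passed depended on the scale.

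Females and males both had a lower start cluster in mD3AKO muscle. Females had 3.30% ± 1.51 in WT (SD, n = 10) and 0.860% ± 0.531 in mD3AKO (SD, n = 11), and males had 5.27% ± 2.31 in WT (SD, n = 11) and 0.436% ± 0.615 in mD3AKO (SD, n = 12). The permutation test within each sex gave p = 4e-05 in females and 3e-05 in males. The interaction of genotype and sex in edgeR's quasi-likelihood test had an unadjusted p of 0.0145 and an adjusted p of 1, so a larger difference in males was not established. That test called 0% of all clusters, and 1679 of 51038 had an unadjusted p under 0.05. Sex itself had an adjusted p of 1.00 at all 4 member clusters.

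**Figure D4:**
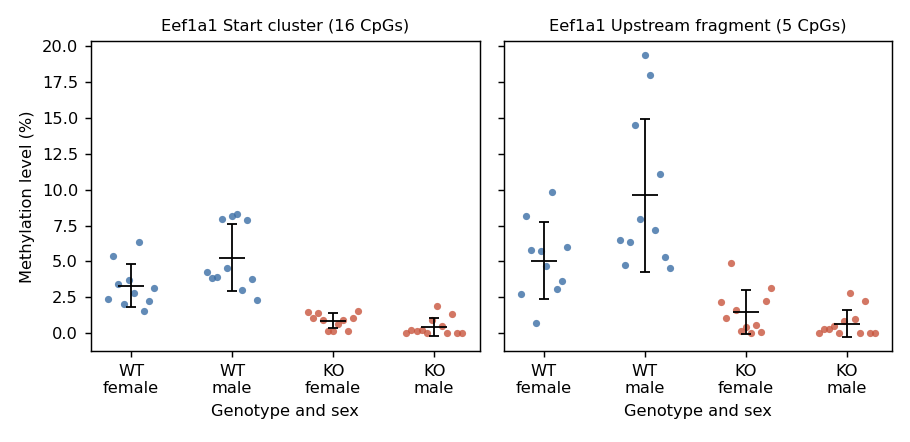
Methylation level (percent) of the Eef1a1 start cluster and of its upstream fragment by genotype and sex, with 1 point per muscle and the mean and SD in black. In the start cluster, WT females average 3.30% and WT males 5.27%, against 0.860 and 0.436% in KO.

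Other genes of translation elongation were described as a list of 33, of which 29 had measured CpGs, in 48 clusters. Of these clusters, 3 were lower in mD3AKO and 0 higher in edgeR's quasi-likelihood test, where 1.09% of all clusters were called lower. Without Eef1a1 and Eef1a2, 2 of 44 clusters were called lower in that test, and 1 was called in the quasi-binomial model. The median difference over the list was -0.245 percentage points, beside -0.455 over all 51038 clusters, and the median WT level was 1.65%, beside 52.2%. Besides the Eef1a1 start cluster, the called clusters belonged to Dph1 and Gfm1.

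Dph1 acts in the synthesis of diphthamide, a modified histidine of elongation factor 2. Its cluster of 13 CpGs (chr11:75178548-75179010), in a region shared with Ovca2, was at 9.29% ± 4.56 in WT (SD, n = 21) and 3.68% ± 2.52 in mD3AKO (SD, n = 23) (edgeR, adjusted p = 0.0133). Gfm1 encodes a mitochondrial elongation factor G. A single CpG (chr3:67464037), in a region shared with Lxn, was at 16.8% ± 16.6 in WT (SD, n = 21) and 2.90% ± 6.45 in mD3AKO (SD, n = 23), with 17 of 23 mD3AKO samples at 0 (edgeR, adjusted p = 0.0334). The Gfm1 call was absent from the quasi-binomial model. Dph1 had 4 clusters and Gfm1 had 3, with 1 called in each gene. Their promoters and gene bodies were not called (edgeR, adjusted p of at least 0.963).

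The partners that recharge eEF1A with GTP were not called. The lowest-p clusters of Eef1b2 and Eef1d were at 0.696% ± 0.460 and 0.799% ± 0.830 in WT (SD, n = 21), and at 0.451% ± 0.318 and 0.360% ± 0.321 in mD3AKO (SD, n = 23), with adjusted p-values in edgeR of 0.737 and 0.612. These clusters lay in regions shared with Ndufs1 and Tigd5. Eef1g, whose product anchors that complex, had 1 CpG at 34.0% ± 20.3 in WT (SD, n = 21) and 33.4% ± 21.2 in mD3AKO (SD, n = 23) (edgeR, adjusted p = 1).

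The clusters whose levels varied most like the Eef1a1 start cluster were looked for among 23619 clusters with at least 100 calls per sample on average. Likeness was the Pearson correlation over 44 samples after the mean of each group was removed. The highest values were 0.737 for Carhsp1, 0.663 for a cluster shared by Gnptg and Tsr3, 0.661 for Prr5, 0.643 for Kat2b and 0.639 for Ahrr. They are a description, since all points share libraries and depth and the clusters were picked as the highest of many. On the log2 odds scale the same correlations were 0.0446 to 0.336. Of the 5 clusters, that of Carhsp1 was called lower in mD3AKO, at 3.22% ± 2.55 in WT (SD, n = 21) and 0.558% ± 0.836 in mD3AKO (SD, n = 23) (edgeR, adjusted p = 0.00123).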

How the data were processed

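Soleus DNA of 44 mice was measured by RRBS. The authors trimmed reads with Trim Galore 0.4.0 and cutadapt 1.9.1, aligned them to mm10 with Bismark 0.18.1, summed both strands and required 8 or more reads per CpG throughout. What they deposited are raw counts, methylated and unmethylated calls at each CpG, without normalization. Groups came from the sample labels, and 6 samples without counts in the table were not used here. The animals are separate mice.

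Counts were summed per cluster, promoter and gene body and fitted in edgeR 4.0.16 (R 4.3.3) with a coefficient per sample and a methylation mean for each of 8 groups. The common dispersion was used. Quasi-likelihood F tests were adjusted by Benjamini-Hochberg over all features, and an adjusted p under 0.05 was a call. SEs were derived from the F statistic. Permutation tests (100000 resamples) permuted genotype within times. The likelihood ratio test, a quasi-binomial model (pseudocount 0.5) and limma 3.58.1 (pseudocount 1) were alternatives. The test was run on simulated counts with changes planted at intermediate levels only. Those levels lie above the start cluster and Eef1a2 exon 1, so the simulation does not cover levels near 0. CpGs were printed singly where called, in the pyrosequencing amplicon or among the 4 largest differences per gene, and 78482312 and 181152479 were added after their values were seen. Elongation genes were named where called and for the partners of eEF1A, and the 5 clusters most like Eef1a1 were named. The members and lists were chosen with earlier results of these data known. Fragments and sequences came from RefSeq GRCm38, and exons and introns from GENCODE M21.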

Additional observations from a re-analysis of the deposited data

Results flagged for a closer look

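In 4 of 32 groups, counted over 4 clusters and 8 groups of samples, 1 sample stood apart from the others of its group by Dixon's criterion. For normally distributed values, chance alone gives about 1 in 20 such groups. Whether that rate holds for percentages such as these was not tested. At the Eef1a1 start cluster, WT sample 14 at rest was at 7.96%, with the next highest at 3.93%, and WT sample 35 at 10 min was at 8.33%, with the next highest at 3.75%. At the Eef1a1 distal cluster, WT sample 20 at rest was at 28.1%, with the next highest at 9.84%. At the Eef1a2 intron cluster, WT sample 38 at 30 min was at 28.6%, with the next lowest at 49.8%. Each sample was left out in turn with the others below.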

How the results depend on the processing

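The start cluster of Eef1a1 was lower in mD3AKO muscle under each alternative run. Its call was kept with the likelihood ratio test, the quasi-binomial model, limma, a coverage minimum of 20, sex as a covariate and the muscles at rest and 60 min alone. It was lost with the muscles at 10 and 30 min alone (log2 odds ratio -2.82, adjusted p = 0.204), while rest and 60 min alone gave -3.63 (adjusted p = 0.0201). When clusters were rebuilt, the upstream CpGs kept the call. The far intron piece at a gap of 50 bp (-1.99) and the joined intron piece at 200 bp (-2.04) were not called. The near intron piece at 50 bp (-1.08, SE 4281) could not be tested. In it, WT at 10 min and mD3AKO at rest had no methylated call. The likelihood ratio test called the start cluster at 60 min (-3.64). Without 1 sample in turn its log2 odds ratio was -3.40 to -3.09 and its level difference -3.83 to -3.49 points. For the other clusters, none called, the same ranges were -0.21 to 0.17 and -0.65 to 1.15 points for the Eef1a1 distal cluster, -0.45 to -0.08 and -0.58 to -0.24 points for Eef1a2 exon 1, and -0.20 to -0.07 and -3.36 to -1.56 points for the Eef1a2 intron. These refits used the member clusters and every 20th cluster, with unadjusted p. Uncalled effects turned sign at rest and 60 min alone for the distal cluster (0.012) and Eef1a2 exon 1 (0.37), at rest in the quasi-binomial model for Eef1a2 exon 1 (-0.19), and in females for the distal cluster (-1.28 points). The gap between the start cluster and the Eef1a2 intron passed on the log2 odds scale (-3.38). Of 2 Eef1a1 CpGs called, 1 was called in the quasi-binomial model, where 78482263 lost its call, and 3 in the likelihood ratio test, where 78482267 gained one. With CpGs weighted equally, the level difference of the start cluster was -2.44 points and the change of its gap to Eef1a2 exon 1 was -2.002 points, both past the threshold. Over all clusters, 557 calls became 1414 with the likelihood ratio test, 1284 with the quasi-binomial model, 895 with limma, 25 at rest and 60 min and 33 at 10 and 30 min. For CpGs, 590 became 1851 with the likelihood ratio test and 1459 with limma. For promoters, 77 became 188, 163 and 133 with the likelihood ratio test, the quasi-binomial model and limma, and for gene bodies 176 became 328 and 284 with the former and the quasi-binomial model. Uncalled CpGs turned sign at Eef1a2 181152479 (0.18 in the quasi-binomial model and 0.031 in limma) and 181156905 (0.076 in the likelihood ratio test), and in limma at 181156867 (-0.15), 181156874 (-0.088), 181156920 (-0.070), 181156922 (-0.11) and Eef1a1 78481531 (-0.32). The cause of these changes was not tested. No paired analysis was possible because each sample number belongs to 1 animal and is shared by no groups.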
